A study of Rattus norvegicus with 6 samples.

Results

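The proteasome is the protease of the cytosol and nucleus that degrades proteins tagged with ubiquitin, and the signals of the genes for its constitutive subunits are given here for rat beta cell-enriched preparations of 2 ages. Members were all probe sets whose only gene symbol begins with Psma, Psmb, Psmc or Psmd and a number, leaving out Psmb8, Psmb9 and Psmb10, the inducible catalytic subunits. The rule gave 40 probe sets of 36 genes, out of 15310 probe sets with 1 symbol and 14506 genes. By their known roles 14 of the genes encode core particle subunits and 17 regulatory particle subunits. The other 5 are the assembly chaperones Psmd5, Psmd9 and Psmd10, the thymic beta subunit Psmb11, and Psmc3ip, whose product acts in meiotic recombination and is no proteasome subunit. Psma3l is the annotation's symbol for a gene name that RefSeq now lists as a synonym of Psma3. A probe set annotated with both Psma3l and Psma3 was left out, as the rule takes only single symbols.

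The core particle is a barrel of 4 stacked rings, in which alpha subunits form the outer rings and the gate, and beta subunits the inner rings that hold the proteolytic sites. The regulatory particle caps the barrel. Its base holds a ring of ATPases that unfold and feed in the substrate, and its lid removes the ubiquitin chain. In cells with a heavy load of secretory protein, such as beta cells, the proteasome also receives misfolded proteins exported from the endoplasmic reticulum. The transcription factor Nfe2l1, when cleaved by Ddi2 and deglycosylated by Ngly1, is a known activator of the subunit genes when proteasome capacity is short.

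Total RNA of sorted pancreatic cells from male Wistar rats was measured on 6 whole-transcript arrays, 3 from suckling pups at postnatal day 20 and 3 from young adults of 250 to 280 g, which the series places at 2 months. No group carried a transgene or a drug. Sorting used light scatter and autofluorescence, the series calls the cells primary cultured, and the labels call the 3 preparations of an age biological replicates without the number of animals in each. The comparison asks which genes change while beta cells mature functionally. Values are log2 signals after RMA, and 1 unit is a 2-fold change. RMA gives the arrays the same distribution of probe signals before the probes are summarised to probe sets. Means carry the SD over 3 arrays. Array medians lay between 6.35 and 6.39 and first quartiles between 4.91 and 4.94. No detection calls were used, and precision is limited by 3 arrays an age. Insulin signals were near the top of the scale (Ins1 from 13.81 to 14.35), but so were those of the digestive enzymes of acinar cells. The mean log2 signal of 17 acinar genes, which include the dimmer regulators Ptf1a, Bhlha15 and Rbpjl, was 13.69 to 13.78 in adult and 13.61 to 13.85 at day 20. RNA of exocrine cells was thus present at both ages, and in such bulk RNA fewer cells of a type and less RNA per cell cannot be told apart.

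Proteasome subunit signals were lower in adult than at day 20 in both particles. Of 14 core subunits 7 fell, and of 17 regulatory subunits 10 fell, with 0 called higher (limma, adjusted p under 0.05 over all genes). At an unadjusted p under 0.05 the numbers were 9 and 13 lower and again 0 higher. In a fit with the mean of 12 pan-endocrine granule genes as a further term, described last, 0 core and 2 regulatory subunits passed (5 core subunits at an unadjusted p under 0.05). Over all 14506 genes 10.9% were called lower and 11.8% higher in adult, and among genes above the median signal, as all subunits were, the shares were 15.6% and 19.6%. Differences were modest, with a median of -0.36 on the log2 scale over the 31 subunits, against 0.012 over all genes, which makes day 20 1.28-fold higher at the median. They ranged from -0.77 (Psmc4) to 0.21 (Psmc6), and 28 of 31 lay below 0. For 24 of the 31 every adult array was below every day 20 array, and for 1, Psmc6, every adult array was above, where the groups did not overlap in these directions for 18.7% and 20.9% of all genes. Some of these gaps were narrow at the nearest arrays, such as 3.3e-04 for Psmb2, 0.0067 for Psma3l and 0.0145 for Psmc6.

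The mean log2 signal of the 14 core subunits was 9.37, 9.47 and 9.44 in the adult arrays and 9.67, 9.76 and 9.79 at day 20. That of the 17 regulatory subunits was 8.93, 9.01 and 8.98 in adult and 9.296, 9.28 and 9.37 at day 20. Arrays of 1 age thus differed by at most 0.12 in the mean of either particle, and the ages by 0.32 and 0.34. The mean of all genes stayed between 6.96 and 7.002. Subunit signals ranged from 7.71 to 11.51 as means over the 6 arrays, and the highest single value, 11.59, was well below the top of the scale at 14.71.

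**Figure D1:**
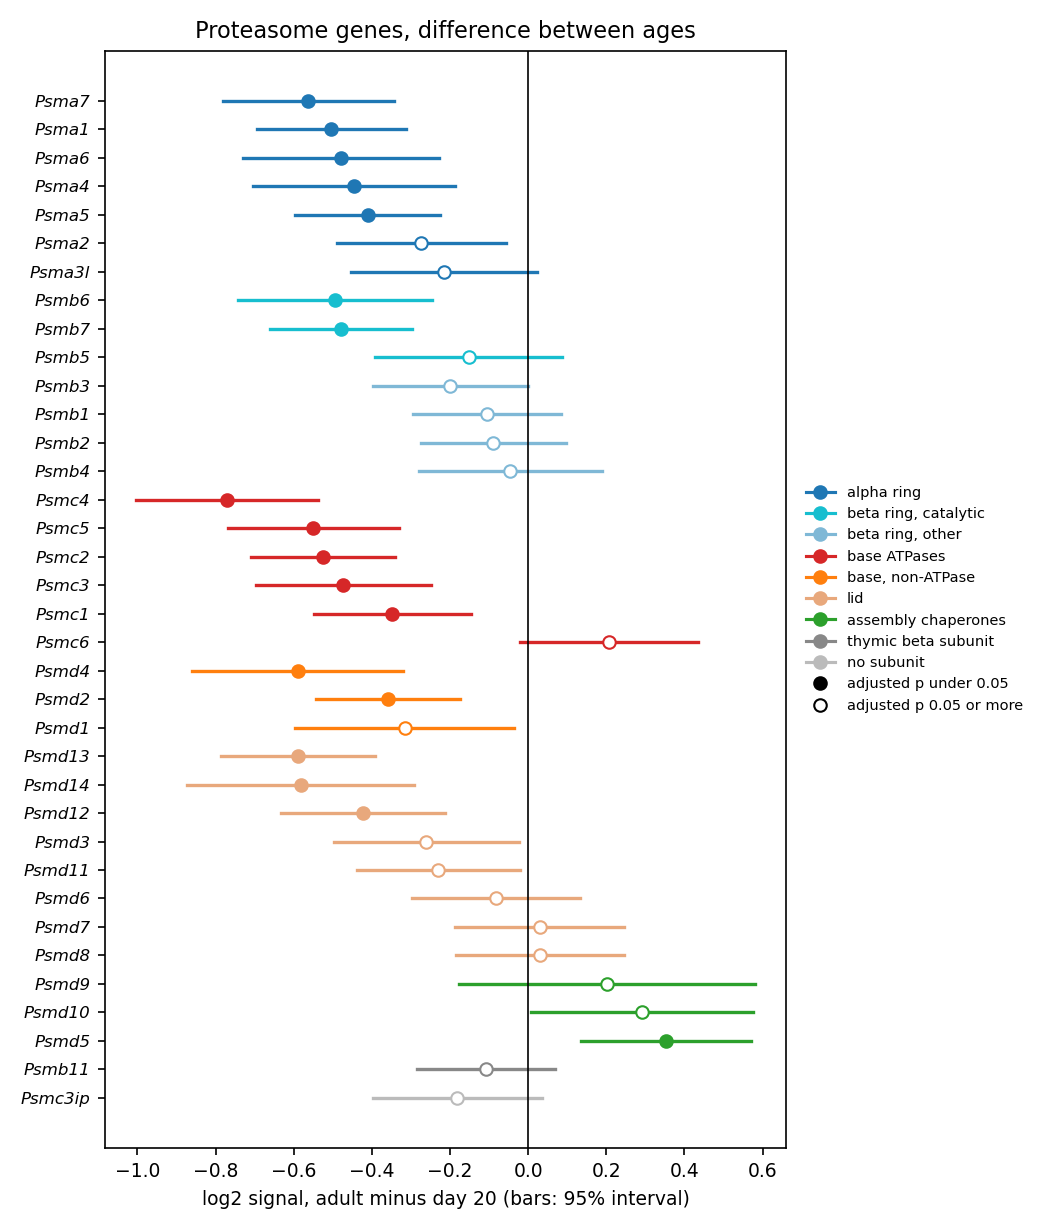
Difference in log2 signal between adult and day 20 for the 36 genes (x axis, points), with the 95% interval from limma (bars), ordered by role and then by size. Filled points mark an adjusted p under 0.05: 17 subunits lie left of 0 and the chaperone Psmd5 right of it.

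In the gate-forming alpha ring 5 of 7 genes fell, against 2 of 3 catalytic and 0 of 4 other genes of the beta ring. For all 7 alpha genes the adult arrays lay below those of day 20, though for Psma3l by only 0.0067 at the nearest arrays. Psma7 (probe set 10852248) had log2 signals of 8.65, 8.78 and 8.75 in adult and 9.42, 9.28 and 9.16 at day 20, and was 1.48-fold higher at day 20 (adjusted p = 0.0041, limma). Its gap between the ages, 0.39 at the nearest arrays, exceeded the spread within either. Psma1 was at 9.68, 9.76 and 9.81 in adult and at 10.21, 10.23 and 10.31 at day 20, a fall by 0.50 on the log2 scale (SE 0.085, adjusted p = 0.0037). The 3 arrays of each age lay close together for this gene. Psma5 was at 7.58, 7.52 and 7.54 against 7.89, 8.01 and 7.95, a fall by 0.41 (adjusted p = 0.0082). Each of these 3 passed with any 1 array left out.

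Psma6 (probe set 10884656) fell by 0.48, from 9.17, 9.41 and 9.50 at day 20 to 8.898, 8.99 and 8.76 in adult (adjusted p = 0.015, limma). A probe set of the same gene with low signals (10759495; 4.34, 4.83 and 4.49 in adult, 4.67, 4.66 and 5.01 at day 20) overlapped between the ages. Psma4 fell by 0.45 (adjusted p = 0.022), with adult signals of 8.52, 8.498 and 8.56 and day 20 signals of 8.73, 9.13 and 9.05, of which replicate 1 was nearest the adult arrays. Psma4 no longer passed without any 1 adult array and without day 20 replicate 2 or 3 (adjusted p from 0.054 to 0.084), and that of Psma6 without adult replicate 3 (0.058) or day 20 replicate 2 (0.056) and with the mean of its probe sets (0.066). Psma2 and Psma3l did not pass, with log2 differences of -0.27 and -0.22 (adjusted p = 0.072 and 0.19). Psma2 passed without day 20 replicate 1 (adjusted p = 0.035), with array weights (0.035) and with genes of low signal removed (0.0497).

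The beta ring was uneven in its calls. Of its 3 catalytic subunits, Psmb6 (caspase-like activity) and Psmb7 (trypsin-like activity) fell, and Psmb5 (chymotrypsin-like activity) did not pass, nor did any of the 4 non-catalytic subunits. Psmb7 (probe set 10844849) had signals of 10.09, 10.18 and 10.17 in adult and 10.61, 10.63 and 10.64 at day 20, a fall by 0.48 on the log2 scale (95% interval -0.66 to -0.30, adjusted p = 0.0038, limma). The day 20 values lay within 0.04 of each other. Psmb6 had 2 probe sets, with adult signals of 8.63, 8.96 and 8.97 against 9.40, 9.31 and 9.34 for the brighter (10735244) and 8.16, 8.55 and 8.47 against 8.93, 9.01 and 8.90 for the other (10822368). They fell by 0.49 and 0.55 (adjusted p = 0.013 and 0.0090), and adult replicate 1 was the lowest array on both.

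Psmb5 was bright at both ages, at 10.80, 11.13 and 11.08 in adult and 11.15, 11.10 and 11.22 at day 20. The groups overlapped, and the 95% interval of its difference was -0.39 to 0.088 (adjusted p = 0.37, limma). The non-catalytic subunits Psmb1, Psmb2, Psmb3 and Psmb4 had log2 differences from -0.20 (Psmb3) to -0.045 (Psmb4), and adjusted p from 0.14 to 0.82. The 95% interval was -0.28 to 0.098 for Psmb2 and -0.397 to -0.0016 for Psmb3, so these subunits are not shown to be unchanged. The within-array difference of Psmb6 over Psmb4 was 0.45 lower in adult than at day 20, with no overlap between the ages. This pair was 1 of 3 picked after their values were seen (the others being Psmc4 with Psmc6 and Psmd14 with Psmd7). The exact permutation test over the 6 arrays gave a two-sided p of 0.10, the smallest it allows, and 0.10 after adjustment over the 3. Pairs picked in this way tend not to overlap, and pairs that were not picked are not adjusted for. No conclusion is drawn from these p-values.

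To show the DNA in front of genes that were and were not called, the 120 bases before the RefSeq start site (build GRCr8) follow for the 3 catalytic subunits, for Psmc4, whose signal fell most, and for the chaperone Psmd5, whose signal rose. Capitals mark the letters TGACNNNGC, the core of the antioxidant response element that Nfe2l factors bind, or CCAAT, the box bound by NF-Y, on either strand.
Psmb5, chr15:32047380-32047499, minus strand: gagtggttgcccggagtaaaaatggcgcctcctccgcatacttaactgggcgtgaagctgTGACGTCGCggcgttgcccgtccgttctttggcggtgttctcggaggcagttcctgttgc
Psmb6, chr10:55737768-55737887, plus strand: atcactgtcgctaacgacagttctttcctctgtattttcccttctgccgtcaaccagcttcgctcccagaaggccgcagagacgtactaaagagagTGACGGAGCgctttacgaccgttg
Psmb7, chr3:42827471-42827590, minus strand: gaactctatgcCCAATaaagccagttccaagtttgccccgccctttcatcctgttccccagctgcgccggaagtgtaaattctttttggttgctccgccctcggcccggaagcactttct
Psmc4, chr1:92485061-92485180, minus strand: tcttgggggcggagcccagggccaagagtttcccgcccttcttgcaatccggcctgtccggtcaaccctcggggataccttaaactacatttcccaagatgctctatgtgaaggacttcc
Psmd5, chr3:38548491-38548610, minus strand: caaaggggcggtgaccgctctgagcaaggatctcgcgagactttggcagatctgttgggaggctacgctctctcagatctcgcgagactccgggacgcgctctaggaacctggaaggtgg

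The response element core stood 60 bases before the start of Psmb5, which did not pass, and 24 bases before that of Psmb6, which fell. In windows of 250 bases before to 50 after the start, found for 26 of the 31 subunits, 5 held it (19.2%, against 12.1% of 33469 rat promoters of that length), namely Psmb2, Psmb5, Psmb6, Psmd1 and Psmd3. In Psmb2 it shares letters with a CCAAT box. Of the 14 called lower that had a window 1 held it, and of the 12 not called 4 did. CCAAT was in 13 of 26 (50%, against 37.5% of all), in 8 of the 14 called lower and 5 of the 12 not called. These are matches of letters, not shown binding sites. The background shares count every listed promoter of that length, of genes measured here or not, while 1 was taken per subunit.

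The ATPase ring of the base fell except for 1 subunit. Of the 6 ATPases that unfold substrates, Psmc1, Psmc2, Psmc3, Psmc4 and Psmc5 fell by 0.35 to 0.77 on the log2 scale, and Psmc6 had a difference of 0.21 in the other direction that did not pass. Psmc4 was measured by 2 probe sets, at 8.69, 8.90 and 8.71 in adult against 9.68, 9.50 and 9.43 at day 20 (10893366), and at 8.41, 8.51 and 8.52 against 9.43, 9.34 and 9.20 (10720135). Day 20 was 1.71-fold and 1.79-fold higher (adjusted p = 0.0013 and 5.5e-04, limma), the lowest day 20 array being above the highest adult array by more than 0.5 on each. This was the largest difference among the 36 genes, and 2.58% of all genes had a lower one.

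Psmc2 (probe set 10860188) was at 9.68, 9.71 and 9.76 in adult and 10.23, 10.21 and 10.29 at day 20 (difference -0.53, SE 0.081, adjusted p = 0.0025, limma), with SDs of 0.040 and 0.042. Psmc5 was at 7.49, 7.43 and 7.38 against 7.95, 7.87 and 8.14, and fell by 0.55 (adjusted p = 0.0045). For both the ages were further apart than any arrays of 1 age. Psmc3 was at 8.06, 8.32 and 8.32 against 8.76, 8.66 and 8.71, a fall by 0.47 (adjusted p = 0.0099) with adult replicate 1 lowest. Psmc1 was at 8.88, 9.06 and 9.02 against 9.38, 9.28 and 9.34, a fall by 0.35 (adjusted p = 0.022). Psmc1 no longer passed when adult replicate 1 or 3, or the day 20 arrays with those numbers, were each left out (adjusted p from 0.054 to 0.068), nor in the fit with a replicate block (0.064). The other 4 passed with any 1 array left out.

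Psmc6 (probe set 10779607) was at 9.57, 9.55 and 9.48 in adult and at 9.16, 9.36 and 9.46 at day 20 (95% interval of the difference -0.020 to 0.43, adjusted p = 0.18, limma). Its groups did not overlap, though day 20 replicate 3 lay only just below the adult arrays. The log2 difference of Psmc4 over Psmc6 within an array was -0.88, -0.66 and -0.77 in adult and 0.53, 0.14 and -0.032 at day 20, a change of -0.98. The exact two-sided permutation p was 0.10, the smallest 20 splits of 6 arrays allow. As the pair was picked after its values were seen, no conclusion is drawn from that p-value.

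Among the non-ATPase subunits of the base, the ubiquitin receptors fell. Psmd4, which binds ubiquitin chains, was at 7.79, 8.11 and 7.90 in adult and 8.72, 8.46 and 8.40 at day 20, a fall by 0.59 on the log2 scale (adjusted p = 0.0085, limma). Adult replicate 2 was its highest adult array and still below all of day 20. Psmd2, a scaffold that docks ubiquitin-like domains, was at 10.15, 10.09 and 10.20 against 10.54, 10.49 and 10.47, a fall by 0.36 (adjusted p = 0.014). Its call was lost by a small margin without adult replicate 2 (0.053). Psmd1, the other scaffold, had a difference of -0.32 (adjusted p = 0.10), and passed with array weights (0.042).

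In the lid 3 of 8 subunits fell, among them the enzyme that cuts off ubiquitin chains. Psmd14, this deubiquitinating metalloprotease (probe set 10845635), was at 8.897, 8.67 and 8.70 in adult and 9.07, 9.50 and 9.44 at day 20, and was 1.497-fold higher at day 20 (adjusted p = 0.012, limma). The ages were nearest at adult replicate 1 and day 20 replicate 1. Psmd13 was at 7.998, 8.08 and 8.10 against 8.61, 8.59 and 8.75, a fall by 0.59 (SE 0.087, adjusted p = 0.0020). Psmd12 was at 8.97, 9.19 and 9.08 against 9.46, 9.45 and 9.59, a fall by 0.42 (adjusted p = 0.012). All 3 passed with any 1 array left out.

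The other lid genes did not pass. Psmd3 and Psmd11 had differences of -0.26 and -0.23 with no overlap between the ages (adjusted p = 0.11 for both, and 0.0425 for Psmd11 with array weights), and Psmd6 one of -0.083. Psmd7, the inactive partner of Psmd14, was at 9.73, 9.996 and 9.92 in adult and 9.85, 9.83 and 9.88 at day 20, a difference of 0.030 with an interval of -0.19 to 0.25. Psmd8 (probe set 10720430) had the same difference to 2 decimals, and its dimmer probe set (10845624, signals from 6.10 to 6.34) one of -0.038. Signals of Psmd14 over Psmd7 within an array were -0.83, -1.33 and -1.23 in adult against -0.78, -0.33 and -0.44 at day 20, with the 2 replicates numbered 1 almost meeting (exact permutation p = 0.10, the smallest possible). This pair too was picked after its values were seen, so no conclusion is drawn from the p-value.

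**Figure D2:**
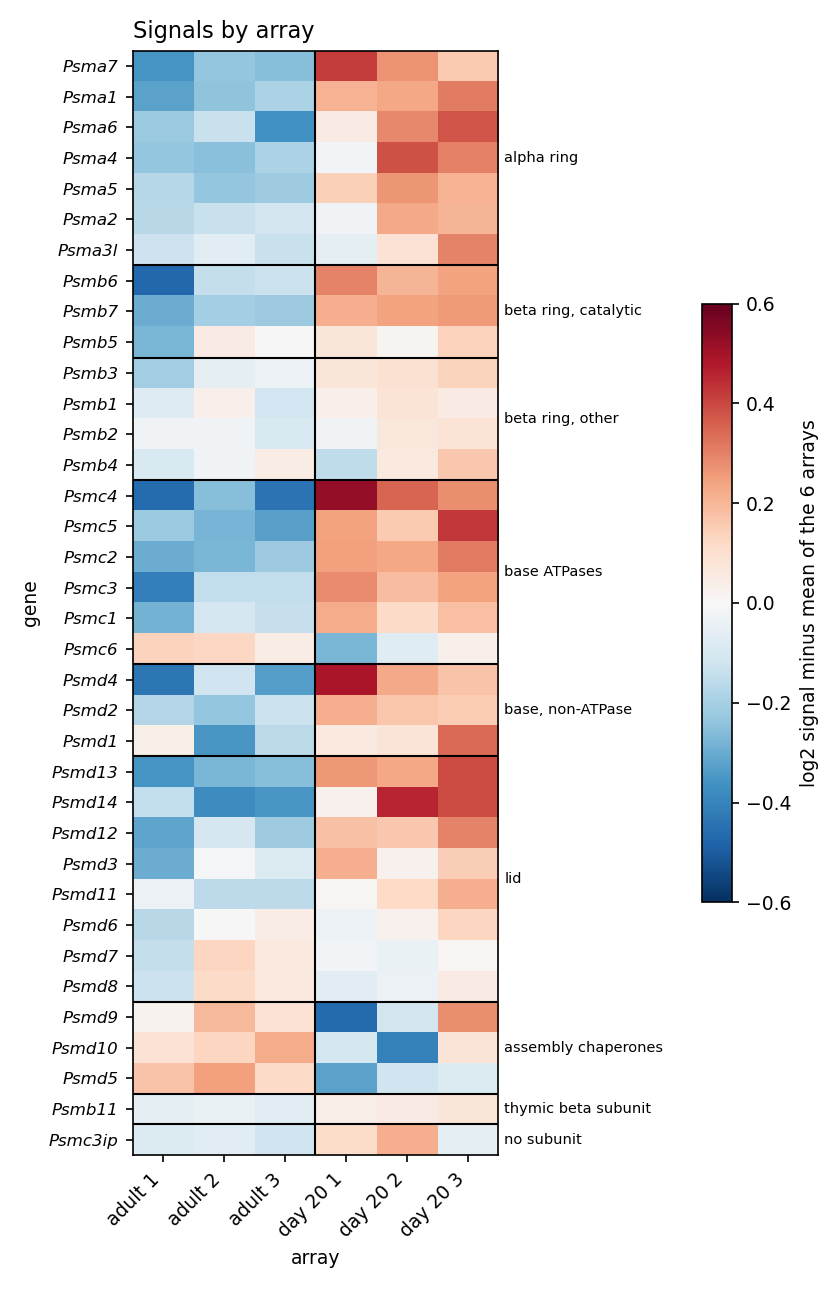
Log2 signal of each of the 36 genes (rows, by role) in each of the 6 arrays (columns), as the difference from the gene's mean over the 6 arrays (colour). Rows of the alpha ring, of 5 ATPases and of Psmd4, Psmd13 and Psmd14 are blue in adult and mostly red at day 20, and the 3 chaperone rows lean the other way.

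The 3 genes with Psmd names that encode chaperones of base assembly, which bind ATPases and are released before the proteasome is complete, had differences above 0, and 1 passed. Psmd5 (probe set 10844587) was at 8.32, 8.39 and 8.26 in adult and 7.82, 8.03 and 8.06 at day 20, and rose 1.28-fold (adjusted p = 0.029, limma). The call was lost without any 1 array other than day 20 replicate 3 (adjusted p from 0.057 to 0.096) and in the fit with a replicate block (0.061). Psmd10, also known as gankyrin, was at 7.35, 7.38 and 7.48 against 7.15, 6.85 and 7.33, with no overlap and a difference of 0.29 (adjusted p = 0.14). It passed without day 20 replicate 3 (0.048) and with array weights (0.0455). Psmd9 ranged at day 20 from 7.75 to 8.4996, across the adult range of 8.24 to 8.42 (difference 0.20, adjusted p = 0.46).

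Psmb11, the beta subunit of the thymus, had low signals at both ages (5.58 ± 0.01 in adult and 5.69 ± 0.02 at day 20, SD, n = 3), below the array medians, and did not pass (difference -0.11, adjusted p = 0.39, limma). Psmc3ip, also below the medians, had a difference of -0.18 (adjusted p = 0.22).

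Probe sets of this family can share sequence with copies elsewhere in the genome. By symbol, RefSeq lists 39 pseudogenes or like-named genes for 15 of the 31 subunits, most for Psmb3 (10) and Psma6 (5). Of the 17 genes called lower 8 had such copies and 9 had none. Signals of the 8, which include Psmc4, Psma7, Psmb6, Psmb7 and Psmd14, may include RNA of a copy, whose share was not tested. Psma1, Psma4, Psmc1, Psmc2, Psmc3, Psmc5, Psmd2, Psmd4 and Psmd13 are the 9 without, though copies under unlike names were not looked for.

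Of 33 other measured genes of the pathway, 10 fell and 7 rose. Among all genes above the median signal, as 32 of these were, 15.6% fell and 19.6% rose, so that the count of rises is near the background. Of the 17 calls, 7 held with any 1 array left out. Among proteins associated with the cap, Sem1, a small lid subunit outside the naming rule, was at 8.15, 8.36 and 8.34 in adult and 9.47, 9.31 and 8.96 at day 20, which was 1.95-fold higher (adjusted p = 0.0017, limma). That is a larger difference than for any of the 36 genes. The ubiquitin receptor Adrm1 fell by 0.37 (adjusted p = 0.020), a call lost without adult replicate 1, without day 20 replicate 1 or 2 (adjusted p from 0.051 to 0.069) and with the replicate block (0.052). Usp14, a deubiquitinase bound to the base, rose instead, from 8.74, 8.90 and 9.096 at day 20 to 9.52, 9.29 and 9.37 in adult (1.40-fold, adjusted p = 0.016), which did not hold without day 20 replicate 1 (0.055) or 2 (0.053).

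Of 4 measured chaperones of core assembly 2 fell. Pomp, which helps beta subunits assemble and is the first substrate of the new proteasome, was at 7.88, 8.13 and 8.02 in adult and 8.498, 8.68 and 8.59 at day 20, a fall by 0.58 on the log2 scale (adjusted p = 0.0038, limma). Psmg1, which helps build the alpha ring, fell by 0.34 (adjusted p = 0.025, but from 0.059 to 0.085 without any 1 array other than day 20 replicate 1). The other 2 measured, Psmg2 and Psmg4, had differences of -0.25 and -0.26 and did not pass, though Psmg2 did with array weights (0.043).

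Alternative caps differed from each other. Psme4, the single-chain activator PA200, was at 10.41, 10.14 and 10.01 in adult and 9.36, 9.49 and 9.54 at day 20, a rise of 1.66-fold (adjusted p = 0.0031, limma) with a gap of 0.47 between the nearest arrays. Psme1, a subunit of the interferon-inducible activator PA28, fell by 0.48 (adjusted p = 0.018), a call lost without adult replicate 2 or day 20 replicate 1 or 2 (adjusted p from 0.0596 to 0.066). Its partner Psme2 and the nuclear Psme3 had differences of -0.035 and -0.14 and did not pass. Of the 3 inducible catalytic subunits 2 fell. Psmb10 was at 8.08, 8.28 and 8.26 against 8.72, 8.71 and 8.74, a fall by 0.52 (adjusted p = 0.0041), Psmb9 passed narrowly (difference -0.32, adjusted p = 0.048, and from 0.051 to 0.14 without any 1 array), and Psmb8 was near the first quartile (5.26 ± 0.07 and 5.38 ± 0.16, SD, n = 3) and did not pass.

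Upstream of the proteasome the E1 enzymes, which activate ubiquitin, moved apart. Uba1, the main E1, was at 10.58, 10.55 and 10.49 in adult and 11.02, 10.89 and 10.96 at day 20, a fall by 0.41 on the log2 scale (adjusted p = 0.0086, limma). Uba6, the second E1, rose by 1.56-fold (adjusted p = 0.021), a call lost without day 20 replicate 1 (0.080) or 2 (0.074). Of 8 genes for shuttle proteins and the segregase Vcp and its cofactors, Rad23b, which carries ubiquitinated proteins to the base, fell by 0.51 (11.01, 10.98 and 11.03 against 11.53, 11.44 and 11.57, adjusted p = 0.0032) and the Vcp cofactor Nsfl1c by 0.32 (adjusted p = 0.028, held without adult replicate 1 alone and from 0.056 to 0.096 without any other array, and 0.063 with the replicate block). The shuttle Ubqln2 rose 1.30-fold (adjusted p = 0.037), but not without adult replicate 1 or any 1 day 20 array (adjusted p from 0.0699 to 0.098) or with the replicate block (0.065). Vcp itself had a difference of -0.17 and did not pass.

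Of 8 measured genes that regulate transcription of the subunits, 3 rose and 0 fell (limma). At an unadjusted p under 0.05 the numbers were 4 and 0. All 8 lay above the median signal, where 19.6% of genes rose and 15.6% fell. Whether 3 of 8 exceeds that share was not tested. The 3 that rose, Ddi2, Nfe2l1 and Ngly1, belong to the Nfe2l1 route. Ddi2, the protease that cleaves Nfe2l1, was at 9.21, 9.04 and 9.06 in adult and 8.46, 8.62 and 8.53 at day 20, a rise of 1.48-fold (adjusted p = 0.0031, limma) that held with any 1 array left out. Nfe2l1 was at 10.04, 9.89 and 9.86 against 9.61, 9.42 and 9.498, and rose 1.34-fold (adjusted p = 0.013, and 0.054 without day 20 replicate 2). Ngly1 rose 1.24-fold (adjusted p = 0.039, but from 0.0698 to 0.11 without any 1 array other than day 20 replicate 2). It also lost its call with a second quantile normalization (0.053), array weights (0.052) and the replicate block (0.074). Nfe2l2 had a difference of 0.24 (adjusted p = 0.080) and passed with eBayes with trend and robust (0.039) and with array weights (0.029). Its repressor Keap1 and the NF-Y genes Nfya, Nfyb and Nfyc did not pass, with differences from -0.0097 to 0.12.

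**Figure D3:**
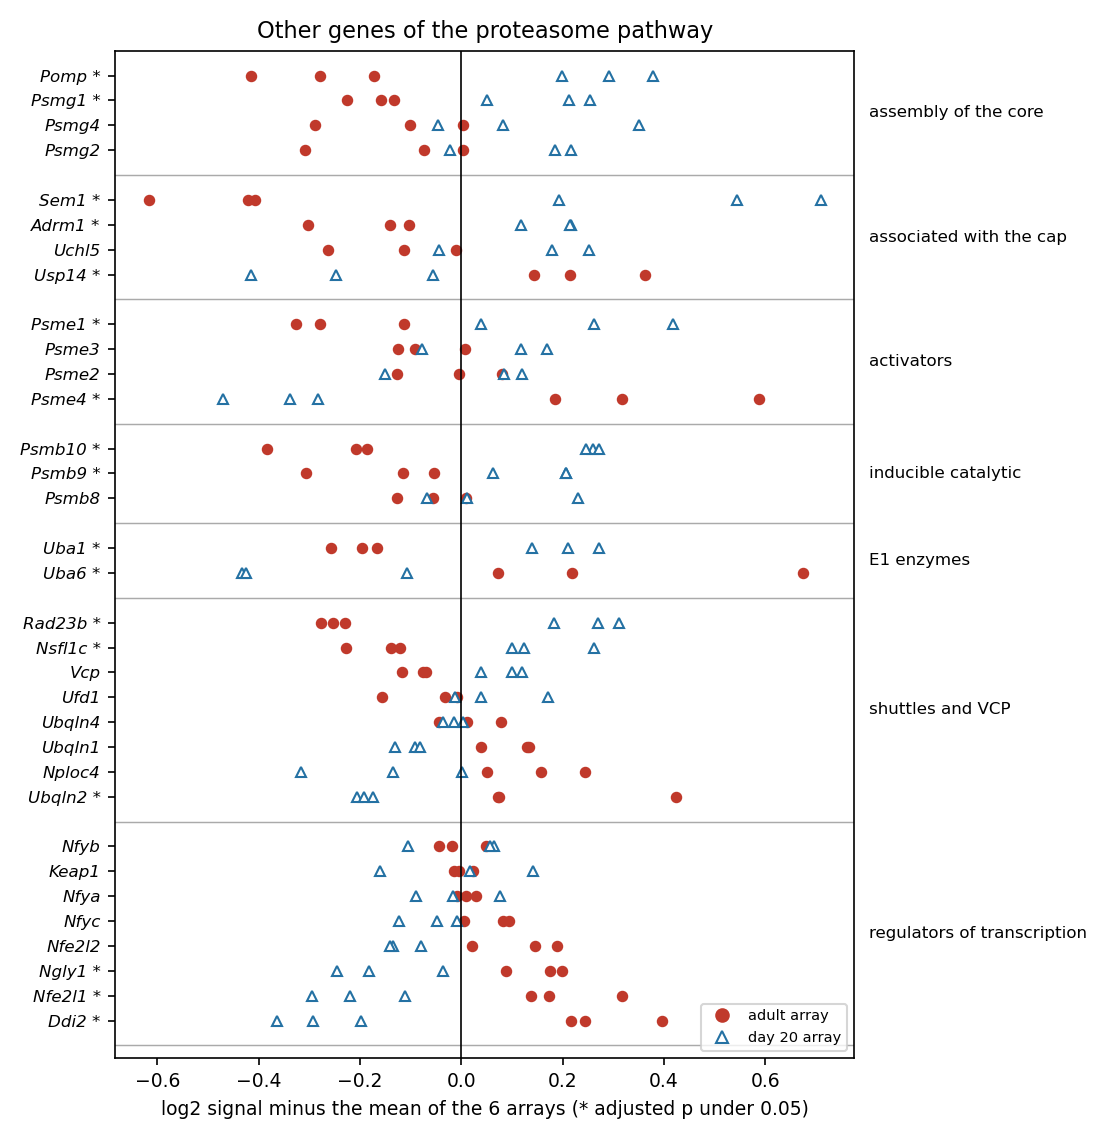
Log2 signal in each array minus the gene's mean over the 6 arrays (x axis) for 33 other genes of the proteasome pathway in 7 lists, with adult arrays as filled circles and day 20 arrays as open triangles. Asterisks mark an adjusted p under 0.05: 10 genes, such as Sem1, Pomp, Psmb10, Uba1 and Rad23b, are lower in adult, and 7, such as Psme4, Uba6 and Ddi2, higher.

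Marker lists of several other cell types also differed between the ages. Of 12 measured genes of dividing cells 11 fell, with list means of 6.64 to 6.66 in adult and 8.05 to 8.44 at day 20, and all 10 endothelial genes fell, with means of 5.68 to 5.81 and 6.61 to 7.22. Fibroblast and stellate genes fell in 5 of 10 (means of 6.03 to 6.17 and 6.73 to 7.03), non-beta endocrine genes in 5 of 7 (8.48 to 8.78 and 9.499 to 9.82), duct genes in 2 of 7 (9.25 to 9.29 and 9.32 to 9.78), leukocyte genes in 1 of 10 (5.56 to 5.62 and 5.61 to 5.79) and acinar genes in 1 of 17. The last 2 shares are at or below the 10.9% of all genes called lower (15.6% above the median signal, as all 17 acinar genes were). The acinar gene that fell was the regulator Ptf1a (difference -0.49, adjusted p = 0.029, limma). The regulators Bhlha15 and Rbpjl had differences of -0.21 and -0.028 and did not pass. Signals of the acinar enzymes were near the top of the scale, so this count may miss a change in them. In the other direction, 6 of 8 beta cell genes rose, with means of 11.64 to 12.13 in adult and 10.31 to 10.92 at day 20, and 9 of 12 pan-endocrine granule genes (10.55 to 11.24 and 9.39 to 10.40). Among the markers with a mean below the first quartile were 3 leukocyte genes, including the pan-leukocyte gene Ptprc (4.38 ± 0.14 in adult and 4.37 ± 0.06 at day 20, SD, n = 3), and 1 fibroblast gene. The part of any of these cells in the proteasome differences was not tested. The mean of the granule genes served as a covariate in 1 fit. That mean did not overlap between the ages, so the fit cannot tell cell content from age.

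With that covariate 15 of the 17 subunit calls were lost. The median log2 difference over the 31 subunits was -0.37 and again 28 lay below 0, but single subunits moved both ways, such as Psmd1 from -0.32 to -0.63 and Psmb6 from -0.49 to -0.36, while the median SE went from 0.096 to 0.16 and the number called lower from 17 to 2 (from 22 to 16 at an unadjusted p under 0.05). Psmc5 (difference -0.75, adjusted p = 0.021, limma) and Psmd13 (-0.64, adjusted p = 0.0395) were the 2 that passed. Over all genes the number called lower went from 1576 to 466. Of the 17 calls among the other pathway genes only that of Rad23b held (-0.59, adjusted p = 0.042), and Sem1 (-0.67, adjusted p = 0.081), Ddi2 (0.55, 0.0825) and Psme4 (0.55, 0.13) did not pass. Some differences shrank, such as Uba6 from 0.64 to 0.19 and Psme1 from -0.48 to -0.24. Others grew, such as Nsfl1c from -0.32 to -0.46. The chaperone Psmd5 stayed near 0.36 but did not pass (adjusted p = 0.27), and Psmd10 went from 0.29 to 0.026.

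**Figure D4:**
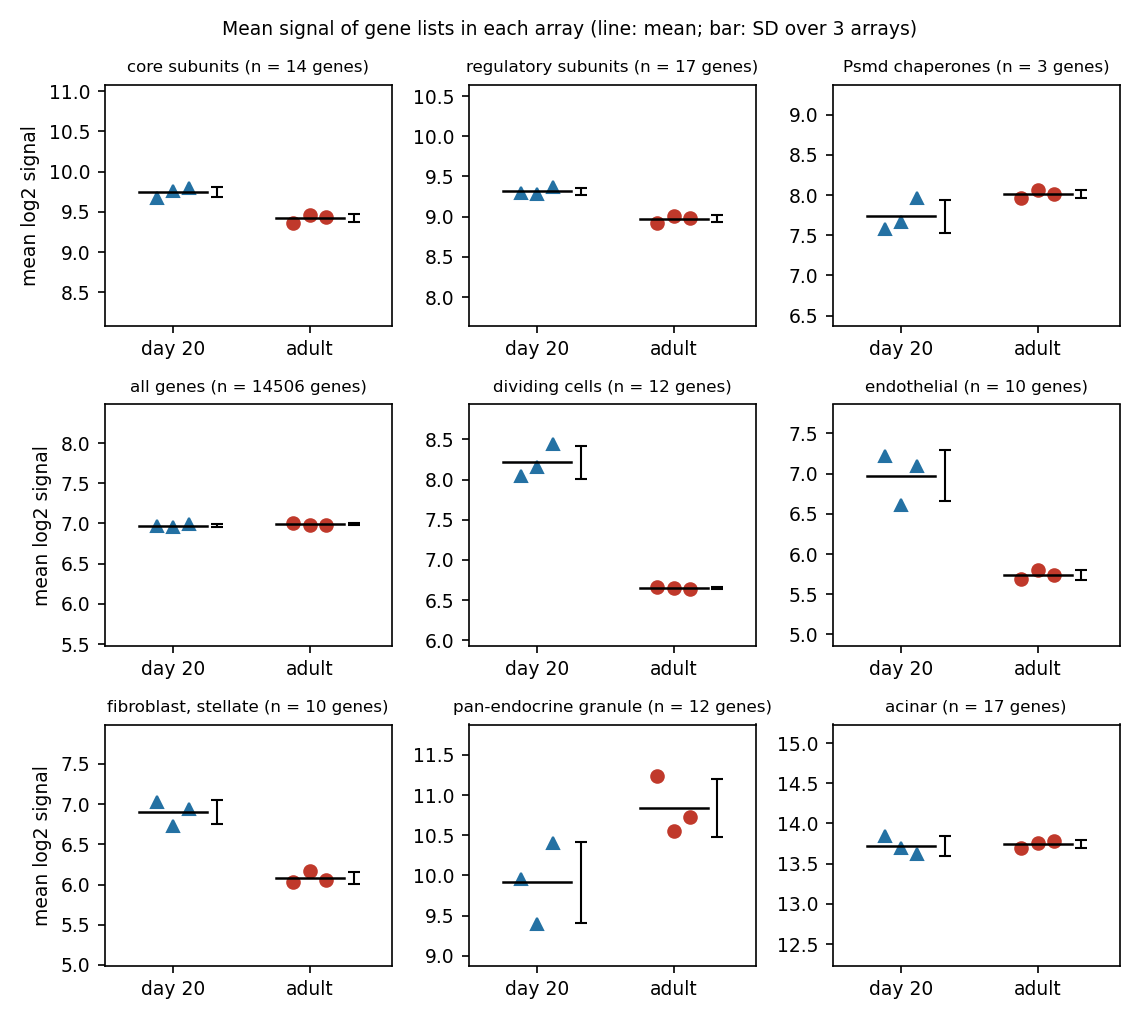
Mean log2 signal of 9 gene lists (y axis, each panel spanning 3 units) in the 3 day 20 and the 3 adult arrays (points), with the group mean (line) and SD over 3 arrays (bar). Core and regulatory subunits are lower in adult by 0.32 and 0.34, less than the lists of dividing (1.56) and endothelial cells (1.23), while the mean of all genes differs by 0.016.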

How the data were processed

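The authors deposited log2 signals per probe set after RMA (per the submitters' processing notes), which corrects background, quantile-normalizes the arrays and summarises probes. Software and genome build: not given in the sources used here. The log2 scale was taken from the range, 1.73 to 14.71. Of 29214 probe sets, 15310 had 1 symbol in the platform annotation, 323 had several and 13581 are unnamed here. Symbols were updated through RefSeq (15279 by Entrez identifier, 6 by accession, 25 kept). For genes with several probe sets the brightest over all arrays was used.

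Adult was compared with day 20 over all 14506 genes with lmFit and eBayes (limma 3.58.1, R 4.3.3). Tests were two-sided, p-values were adjusted by Benjamini-Hochberg, and the threshold was 0.05. P-values of second probe sets come from a fit over all probe sets. Named genes were the members past the threshold, the catalytic, deubiquitinating and ubiquitin-binding subunits, and up to 3 called genes of each other pathway list. Members and lists were chosen with earlier results of these data known. Promoters came from RefSeq (GRCr8), matched for 30 of 36 genes. The fit was tested on simulated data. Alternatives numbered 15. Same-numbered replicates deviated together by correlations of -0.19, 0.19 and -0.21, so the numbers were not taken to pair the arrays. Figures used Python 3.11.15 and matplotlib 3.10.9.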

Additional observations from a re-analysis of the deposited data

How the results depend on the processing

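Over 15 alternatives the core particle had 5 to 8 subunits called lower and the regulatory particle 9 to 12, apart from the fit whose covariate was the pan-endocrine granule mean, which called 0 and 2 (limma; 5 core subunits had an unadjusted p under 0.05 there, against 9 without it). That fit called 773 genes over the whole table, 466 of them lower, against 3294 and 1576. With 1 array left out in turn, 5 to 8 core subunits and 9 to 10 regulatory subunits were called, the median difference over both ranged from -0.39 to -0.37, and 2159 to 2925 genes were called over the table, the fewest without day 20 replicate 2, of which 1076 were lower. Of the 17 subunits called, 13 (5 core and 8 regulatory) passed in all alternatives but the covariate, and 2 in all 15. With the replicate number as a block, which is a shared number and not a shown pairing, 7 core and 9 regulatory subunits were called (2609 genes in all). A second normalization or centring on the median left the subunits at a median of -0.38 or -0.34, and the median of all genes at 0.011 or 0.030.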
